A study of Mus musculus with 2 samples.

Results

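The serotonin receptors measured were Htr1a, Htr1b, Htr1d, Htr2a, Htr2c, Htr3a, Htr4, Htr5a, Htr6 and Htr7. They were taken as the non-control probes that carry one of these 10 gene names on the array, which gave 13 of the 41174 probes and 10 of the 27962 gene names. Htr2c had 3 probes, Htr4 had 2, and each of the other 8 genes had 1, with 1 spot for each probe. The tissue was whole brain of C57BL/6J dams, 8 weeks old, taken on postpartum day 0. On the first array, RNA of TDAG51-/- dams, which lack the TDAG51 gene (also named Phlda1), was labelled with Cy3 and RNA of wild-type TDAG51+/+ dams with Cy5. On the second array, RNA of TDAG51-/- dams was again in Cy3, and RNA of TDAG51-/-Tg2 dams, which the sample labels call KO Tg, was in Cy5. By the study's description, TDAG51-/-Tg2 dams carry the same deletion and a TDAG51 transgene driven by the BAI1-AP4 promoter, which is active mainly in the cerebral cortex and hippocampus, and they come from 1 transgenic line. How many dams each RNA sample held, and whether the TDAG51-/- RNA was the same on both arrays, is not given in the sources used here. Each comparison rests on a single array and the dyes were never exchanged. The spread between dams was therefore not measured, no test was possible, every ratio below describes these RNA samples alone, and a dye effect cannot be told apart from genotype.

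Serotonin is made by neurons of the raphe nuclei in the brainstem, whose fibres reach nearly all of the brain, and it is known for its part in mood and maternal care. Its receptors act in different ways. Those of Htr1a, Htr1b, Htr1d and Htr5a couple to inhibitory G proteins and lower cyclic AMP, those of Htr4, Htr6 and Htr7 couple to stimulatory G proteins and raise it, those of Htr2a and Htr2c act through phospholipase C and calcium, and the product of Htr3a is a subunit of a cation channel opened by serotonin.

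The probes of the genes on which the results turn are shown because each of these genes was read by this single stretch of transcript. Coordinates are those of the scanner output, on mm7. The Htr6 probe lies at chr4:138440209-138440268 on the minus strand and reads the coding sequence of the last membrane-spanning segment, in which capitals mark the codons of the asparagine-proline motif, ending in tyrosine, that receptors of this class share. The Htr1b probe lies at chr9:81729654-81729713 on the minus strand, in the coding sequence near its end. For Htr7, at chr19:35660959-35661018 on the minus strand, and Htr5a, at chr5:26874889-26874948 on the plus strand, the first 30 bases of the 60 are shown, since the part of the transcript they read was not determined here.
Htr6: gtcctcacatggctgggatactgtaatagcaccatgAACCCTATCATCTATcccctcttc
Htr1b: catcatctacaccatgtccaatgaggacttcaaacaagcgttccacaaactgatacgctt
Htr7: aagtaatgcagaacagggggaaacaacgaa
Htr5a: tgtcctgggacagcaatggatctgcctgta

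Intensities are the mean brightness of a spot in arbitrary units, and those of different probes are not compared. Over all spots, the median intensity was between 336 and 385 in the 4 channels, over median local backgrounds of 39.0 to 44.0. Ratios are TDAG51-/- over the control of the same array after background correction and loess normalization, with 1 on the log2 scale standing for 2-fold. For 216 and 212 probes with at least 5 spots and well above background in both channels, the log2 ratio of the scanner software varied from spot to spot. The median SD over these probes was 0.06 on each array, which is technical. TDAG51 itself read 350 in TDAG51-/- against 7283 in TDAG51+/+, a 17.3-fold lower ratio, whereas on the second array TDAG51-/- read 44.1 and TDAG51-/-Tg2 50.5, neither of which the scanner marked as well above background. The reading of this probe thus did not show TDAG51 RNA in the sample labelled TDAG51-/-Tg2, and whether the probe lies within the transgene is not given in the sources used here. The study analyzed transgene expression in the brain of this line by RT-PCR and immunofluorescence. It reports that maternal and depressive-like behaviour was restored in these dams. This probe alone therefore does not show whether the transgene was expressed. In what follows, TDAG51-/-Tg2 names that sample by its label. All 11 markers of cortex and hippocampus were well above background on both arrays, which does not check the whole-brain label, and markers of other regions differed severalfold between the samples.

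On each array, 11 of the 13 serotonin receptor probes passed the scanner's background mark in at least 1 channel and 10 passed it in both. The remaining 2, a probe of Htr2c and a probe of Htr4, read between 46.2 and 73.6 in all 4 channels and gave no ratio. The Htr2a spot of the first array was marked as uneven in Cy5 and was left out, so that 10 probes were compared with TDAG51+/+ and 11 with TDAG51-/-Tg2. Against TDAG51+/+, 1 of 10 probes was at least 2-fold higher in TDAG51-/- (Htr7) and 2 were at least 2-fold lower (Htr5a and Htr6), where 4.9% and 4.42% of all 34570 probes tested were higher and lower by as much. Against TDAG51-/-Tg2, 1 of 11 probes was at least 2-fold higher (Htr7) and 1 at least 2-fold lower (Htr6), with 4.72% and 3.86% of all 33802 probes. Counts this small cannot be told apart from these background shares. The receptor probes had a median log2 ratio of 0.04 to TDAG51+/+ and of -0.29 to TDAG51-/-Tg2, compared with 0.01 in each for all probes tested. Both comparisons share the TDAG51-/- genotype, so their values are given side by side. Htr6 and Htr7 are also among the genes that the study selected from these same arrays, so that their directions here are not independent evidence. The same holds for genes named further below, among them Slc6a4, Tph2, Fev, Plcb4, Kcnj6, Drd1, Adora2a and Gabra6. Of these, the study also measured Slc6a4, Tph2, Fev, Drd1, Adora2a and Gabra6 by real-time PCR and reports the same directions. Its text names no real-time PCR of Htr6, Htr7, Plcb4 or Kcnj6.

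**Figure D1:**
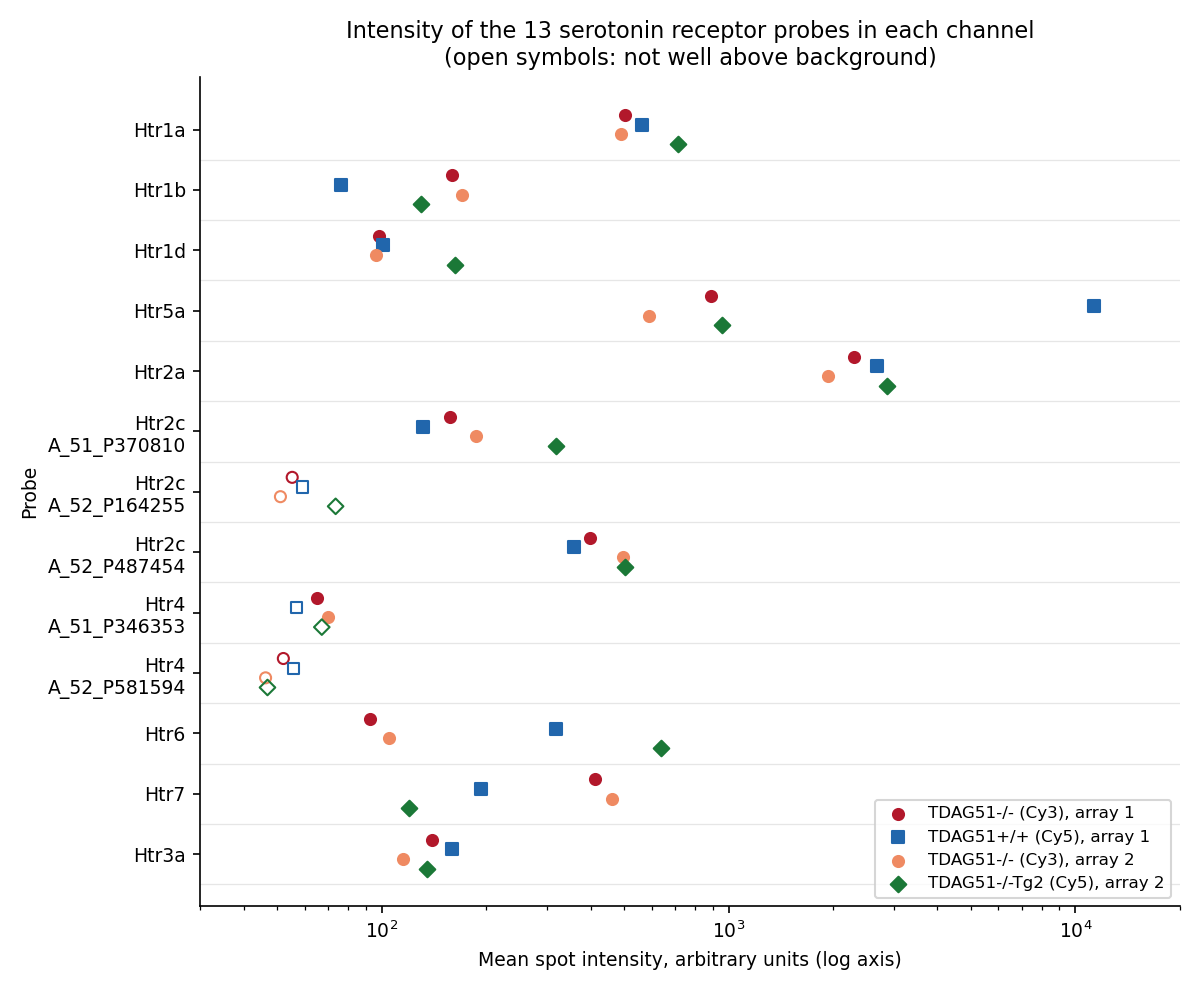
Mean spot intensity (log axis, arbitrary units) of each of the 13 serotonin receptor probes in the 4 channels, 1 spot each, with open symbols where the scanner did not mark the spot as well above background. Both TDAG51-/- values lie below both controls for Htr1a, Htr1d, Htr5a, Htr2a and Htr6 and above both for Htr1b and Htr7, and the TDAG51+/+ value of Htr5a (11349) stands far above its 3 other values. These intensities are not normalized, and without normalization the median log2 ratio of all probes was -0.19 and -0.25. After loess, the log2 ratios of Htr1a and Htr1d to TDAG51+/+ were -0.04 and -0.06.

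Among the receptors that couple to stimulatory G proteins, Htr6 was lower and Htr7 higher in TDAG51-/- brain than in either control. The receptor of Htr6 is best known from the striatum, nucleus accumbens and cortex. The Htr6 probe read 92.3 in TDAG51-/- and 317 in TDAG51+/+ on the first array, and 105 in TDAG51-/- and 638 in TDAG51-/-Tg2 on the second. Both TDAG51-/- values were therefore lower than both control values, and all 4 spots were well above background. The ratio was 2.96-fold lower than in TDAG51+/+ (log2 -1.56), and 410 of the 34570 probes, Htr6 included, were as low or lower. It was 4.74-fold lower than in TDAG51-/-Tg2 (log2 -2.24), where 101 of the 33802 probes, Htr6 included, were as low or lower. The local backgrounds of the TDAG51-/- spots were 40.5 and 41.5, and the size of the ratio moved with the offset added to the intensities: with offset 0 it was -2.20 and -2.86, and the scanner software gave -2.54 (error 0.32 by its model for the spot) and -3.13 (error 0.36). In these bulk samples, fewer cells of a type and less RNA per cell cannot be told apart.

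Htr7, whose receptor is known from the thalamus, hypothalamus, hippocampus and raphe nuclei, was the receptor probe at least 2-fold higher in TDAG51-/- in each comparison. The probe read 412 in TDAG51-/- and 193 in TDAG51+/+ on the first array, and 462 in TDAG51-/- and 119 in TDAG51-/-Tg2 on the second. The TDAG51-/- values exceeded both controls, again with all 4 spots well above background. The ratio was 2.23-fold higher than in TDAG51+/+ (log2 1.16) and 4.03-fold higher than in TDAG51-/-Tg2 (log2 2.01). Of all probes tested, Htr7 included, 1149 in the first comparison and 210 in the second were as high or higher. The local background of the TDAG51-/-Tg2 spot was 40, and the size of the ratio moved with the offset here too. With offset 0 the log2 ratios were 1.40 and 2.56, and the scanner software gave 1.39 (error 0.24) and 2.68 (error 0.33).

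Htr4, whose receptor is found in the basal ganglia and hippocampus, was close to background with both of its probes. The brighter probe read 64.9 in TDAG51-/- and 56.9 in TDAG51+/+ on the first array, and 70.0 in TDAG51-/- and 67.2 in TDAG51-/-Tg2 on the second. Only the TDAG51-/- spots were marked as well above background. The ratio to TDAG51+/+ is therefore a bound, at least 1.04-fold higher, taking for the dim channel the higher of its own signal and the lowest signal well above background, and against TDAG51-/-Tg2 the bound was under 1 and no fold is given. At this signal a difference in Htr4 was not detectable.

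**Figure D2:**
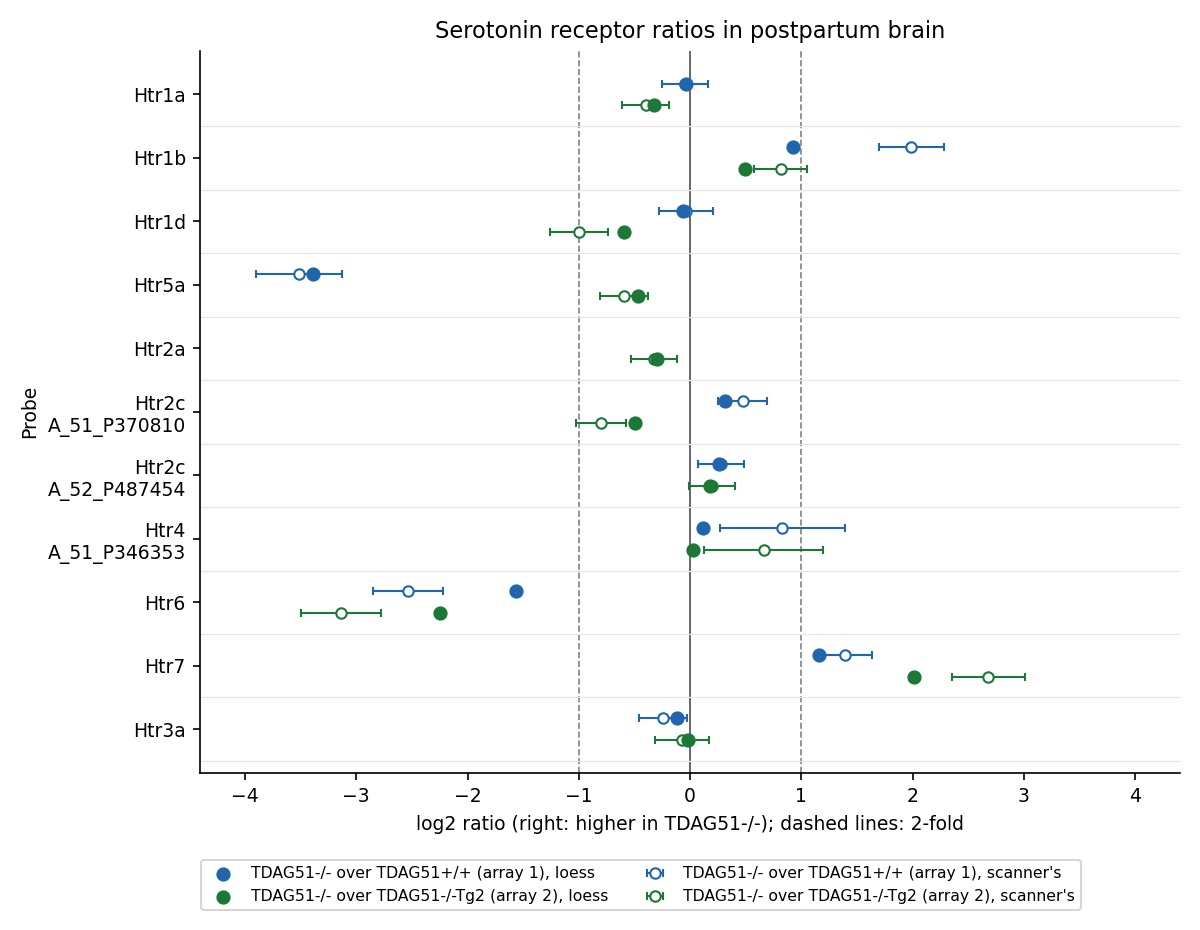
log2 ratio of TDAG51-/- over TDAG51+/+ (blue) and over TDAG51-/-Tg2 (green) for the 11 serotonin receptor probes above background, after loess (filled) and as given by the scanner software (open, bars: its error for that spot, not the spread between dams). Dashed lines mark 2-fold. Htr6 lies left and Htr7 right of these lines in both comparisons, Htr5a passes in the comparison with TDAG51+/+ alone, and the Htr2a spot of the first array was left out. The control spots of Htr4 were not well above background on either array, so its points are not measured ratios.

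The 4 receptors that couple to inhibitory G proteins did not share a direction. Htr5a, a receptor of forebrain neurons and astrocytes, had the greatest difference of all receptor probes, and it rested on the TDAG51+/+ channel. Its probe read 891 in TDAG51-/- and 11349 in TDAG51+/+ on the first array, and 590 in TDAG51-/- and 959 in TDAG51-/-Tg2 on the second. The TDAG51+/+ spot was the single bright one among the 4. The ratio was 10.5-fold lower than in TDAG51+/+ (log2 -3.39), with 18 of the 34570 probes, Htr5a included, as low or lower, and 1.39-fold lower than in TDAG51-/-Tg2 (log2 -0.47). The pixels of the bright spot varied by 9.52% of its mean, and it was neither saturated nor marked as an outlier. Without a second spot or a second probe for Htr5a, whether the TDAG51+/+ value holds for other spots or dams was not tested.

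The Htr5a reading of TDAG51-/- also differed between arrays, by -0.62 on the log2 scale (second minus first, Cy3 channels scaled to a common distribution), where 228 of the 34207 probes, Htr5a included, were as low or lower. It was lower on the array where Cy5 was lower too. Over all probes, with a limit of 8-fold chosen after these values were seen, the same held. The 56 probes at least 8-fold lower in Cy5 on the second array had a median Cy3 difference of -1.07, and 52 of them were lower in Cy3. The 49 probes at least 8-fold higher in Cy5 had a median Cy3 difference of 0.29, and 43 of them were higher in Cy3. The 30063 probes within 2-fold in Cy5 had a median of 0.00312. The part of this relation in the TDAG51-/- reading of Htr5a, or of TDAG51, was not tested.

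Htr1b encodes a receptor on axon endings, where it limits release of serotonin and of other transmitters, and its probe was higher in TDAG51-/- in both comparisons without reaching 2-fold. It read 159 in TDAG51-/- and 76.5 in TDAG51+/+ on the first array, and 170 in TDAG51-/- and 130 in TDAG51-/-Tg2 on the second. The lowest of the 4, in TDAG51+/+, was near its local background of 38.5. The ratio was 1.90-fold higher than in TDAG51+/+ (log2 0.92) and 1.41-fold higher than in TDAG51-/-Tg2 (log2 0.49). The first of these passed 2-fold with offset 0 (log2 1.55), with median centring (1.00) and by the scanner software (1.99, error 0.29). A second probe, named D430036J16Rik on the array and described there as a clone of Htr1b but lying on the opposite strand, was not counted as Htr1b. Its intensity ran from 75.2 to 83.8 in the 4 channels, with a log2 ratio of -0.11 to TDAG51+/+. On the second array its TDAG51-/-Tg2 spot was not well above background, so that no log2 ratio is given there.

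Htr1a encodes both the autoreceptor of the raphe neurons and a receptor of cortical and hippocampal neurons. The Htr1a probe gave 503 in TDAG51-/- and 565 in TDAG51+/+ on the first array, and 489 in TDAG51-/- and 716 in TDAG51-/-Tg2 on the second. The ratios were within 2-fold, at -0.04 and -0.33 on the log2 scale, the highest value being that of TDAG51-/-Tg2. Htr1d, a relative of Htr1b that also acts at axon endings, read 98.4 in TDAG51-/- and 101 in TDAG51+/+ on the first array, and 96.1 in TDAG51-/- and 163 in TDAG51-/-Tg2 on the second. Here too TDAG51-/-Tg2 was the highest, and the other 3 values lay close together. The log2 ratios of Htr1d were -0.06 against TDAG51+/+, a sign that turned with median centring (0.02), and -0.60 against TDAG51-/-Tg2, which was -1.01 and so past 2-fold in the deposited log2 ratio.

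Htr2a and Htr2c, which act through phospholipase C, were within 2-fold wherever a ratio was measured. Htr2a, a receptor of cortical pyramidal neurons, read 1936 in TDAG51-/- and 2862 in TDAG51-/-Tg2 on the second array, a 1.23-fold lower ratio (log2 -0.29). On the first array the uneven spot read 2305 in TDAG51-/- and 2674 in TDAG51+/+, and the deposited log2 ratio of it was 0.00233.

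Htr2c, the receptor that is abundant in the choroid plexus and widespread in the brain, was read by a pair of probes to one RefSeq transcript, and another probe to a cDNA clone, A_52_P164255, was at background. The dimmer of the pair, A_51_P370810, read 157 in TDAG51-/- and 132 in TDAG51+/+ on the first array, and 187 in TDAG51-/- and 318 in TDAG51-/-Tg2 on the second. Its log2 ratios were 0.31 and -0.49, so that TDAG51-/- lay between the controls. The brighter, A_52_P487454, read 397 in TDAG51-/- and 358 in TDAG51+/+, and 496 in TDAG51-/- and 502 in TDAG51-/-Tg2. Its log2 ratios were 0.26 and 0.18, and the second of these turned to -0.04 without normalization within the array. The probes of Htr2c thus differed in sign against TDAG51-/-Tg2, and neither passed 2-fold.

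Htr3a, the channel subunit, is expressed by a class of cortical interneurons. The Htr3a probe gave 140 in TDAG51-/- and 159 in TDAG51+/+ on the first array, and 116 in TDAG51-/- and 135 in TDAG51-/-Tg2 on the second. The 4 values lay close together, and the log2 ratios were -0.12 and -0.02.

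The control genotypes were never on the same array, so TDAG51-/-Tg2 was compared with TDAG51+/+ through the Cy5 channels of the arrays, scaled to a common distribution. Among the 9 receptor probes with a value, Htr2c probe A_51_P370810 was 2.10-fold higher in TDAG51-/-Tg2 (log2 1.07) and Htr5a was 11.7-fold lower (log2 -3.54), where the share of all 33377 probes that passed 2-fold was 3.78% upward and 4.13% downward. The controls also differed for Htr6, which was 1.81-fold higher in TDAG51-/-Tg2 (log2 0.86), and for Htr7, which was 1.60-fold lower (log2 -0.68). For the remaining 5 probes, the differences ran from -0.33 for Htr3a to 0.53 for Htr1b. The same comparison of the TDAG51-/- readings, in Cy3, gave 0 of 10 receptor probes at least 2-fold apart, with 0.14% and 0.225% of all 34207 probes higher and lower by as much on the second array. These differences ran from -0.62 for Htr5a to 0.30 for Htr2c probe A_52_P487454, and those of Htr6 and Htr7 were 0.18 and 0.17. Each Cy5 difference holds 1 spot from each array, and array and genotype cannot be told apart in it.

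**Figure D3:**
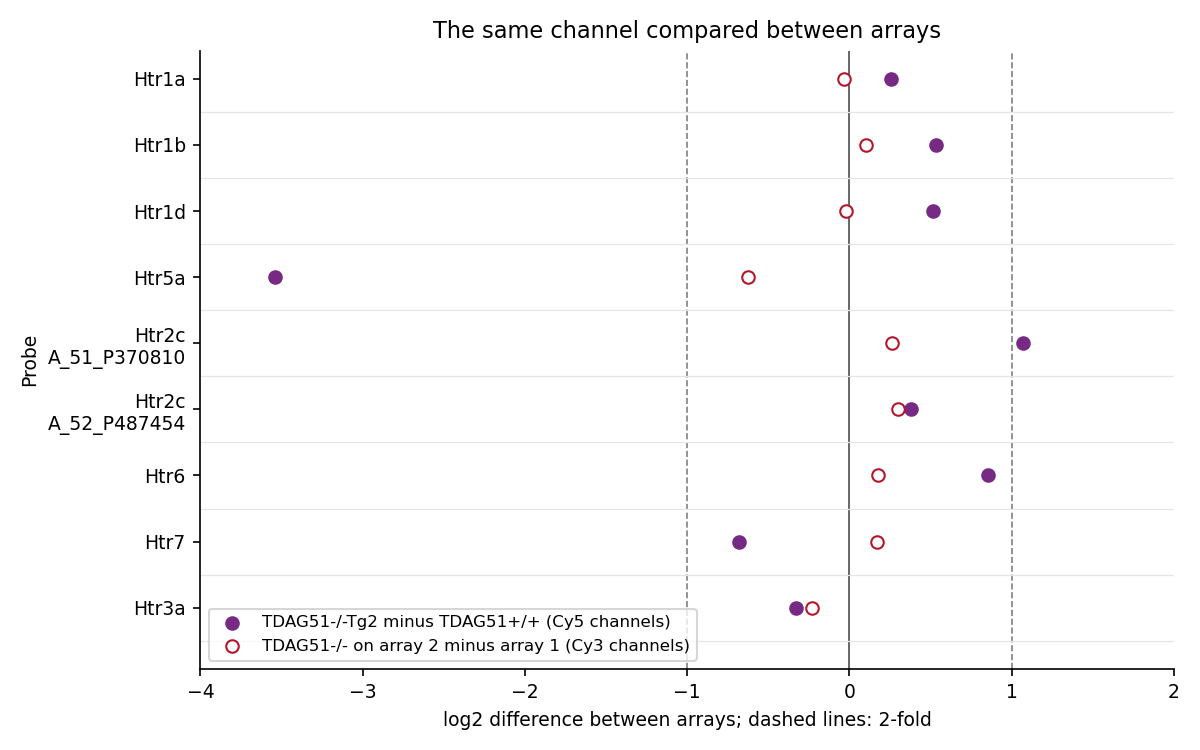
log2 difference between arrays, second minus first, for the 9 serotonin receptor probes well above background in Cy5 on both: TDAG51-/-Tg2 minus TDAG51+/+ (filled, Cy5) and TDAG51-/- minus TDAG51-/- (open, Cy3). Dashed lines mark 2-fold. In Cy5, Htr5a (-3.54) and Htr2c probe A_51_P370810 (1.07) lie outside the lines, whereas in Cy3 the farthest is Htr5a (-0.62).

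The array also held 4 other serotonin receptor genes. Htr3b, a partner subunit of Htr3a, was not above background. Htr1f, a relative of Htr1d, had log2 ratios of -0.30 against TDAG51+/+ and -0.75 against TDAG51-/-Tg2. Htr5b, a relative of Htr5a, had -0.36 and -0.85. The 2 probes of Htr2b disagreed. The brighter had log2 ratios of -0.16 and -0.34, and the other had 1.13 and 0.59, which is 2.19-fold higher than in TDAG51+/+.

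Of the genes listed for serotonin supply and for the serotonin neuron, those that differed by 2-fold were higher in TDAG51-/-. Under other settings, up to 1 gene of synthesis or breakdown was 2-fold lower than in TDAG51+/+. Against TDAG51-/-Tg2, up to 2 were 2-fold lower. In the following lists a gene is represented by its brightest probe. Of 13 genes of serotonin synthesis, storage, uptake and breakdown, 3 exceeded TDAG51+/+ by 2-fold or more and 4 exceeded TDAG51-/-Tg2. In both comparisons 0 were lower by as much. Over all probes tested, 4.9% and 4.72% were higher by as much. By sign alone, 8 were higher and 5 lower than in TDAG51+/+, and 10 higher and 3 lower than in TDAG51-/-Tg2. The list was chosen with earlier results of these data known, and its counts were not tested against these shares. The serotonin transporter Slc6a4 was 9.56-fold and 7.72-fold higher, and Tph2, the enzyme that commits tryptophan to serotonin in neurons, was 6.05-fold and 2.57-fold higher. The vesicular monoamine transporter Slc18a2 was 2.12-fold and 1.57-fold higher, Ddc, the decarboxylase of the last step, 1.42-fold and 2.47-fold, and Maoa, which breaks serotonin down, 1.55-fold and 2.24-fold. A dimmer probe of Ddc was not higher, at 0.05 and -0.43 on the log2 scale. Median log2 ratios of this list were 0.50 and 0.44.

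Of 4 transcription factors of serotonin neurons, 3 were at least 2-fold higher than in TDAG51+/+ and 1 than in TDAG51-/-Tg2, with medians of 1.06 and 0.88. Over all probes tested, 4.9% and 4.72% were higher by as much, and these counts were not tested against those shares. Fev, which is expressed in serotonin neurons and hardly elsewhere in the brain, was 2.11-fold and 6.07-fold higher. Gata3 was 4.01-fold and 1.89-fold higher and Gata2 2.05-fold and 1.79-fold, whereas Lmx1b had log2 ratios of -0.08 and -0.04. Over the 31 genes through which the receptors signal, such as G proteins, adenylyl cyclases and inward rectifier channels, the medians were -0.29 and -0.26. Of the 29 and 30 detected, 1 was at least 2-fold higher in each comparison, the phospholipase C gene Plcb4 (2.91-fold and 2.31-fold). Against TDAG51+/+, 3 were at least 2-fold lower and against TDAG51-/-Tg2 1 was. Counts this small, higher or lower, cannot be told apart from the shares over all probes. The lower genes were the channel gene Kcnj6 (5.45-fold and 3.57-fold lower), the adenylyl cyclase Adcy2 (log2 -1.63 and -0.90) and the phospholipase C gene Plcb1 (2.03-fold and 1.52-fold). A dimmer probe of Kcnj6 had log2 ratios of 0.10 and -0.10, so that its probes disagreed. Of the 3 dimmer probes of Plcb1, 2 were also lower, at -0.98 and -0.69 and at -0.54 and -0.50, and the other had 0.01 and 0.34. A dimmer probe of Adcy2 was lower as well, at -1.92 and -0.75.

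Markers of brain regions were read in the same samples. Of 11 striatum markers, 10 were above background (Gpr6 was not), 8 were at least 2-fold lower in TDAG51-/- in each comparison, and the medians were -1.51 and -1.66. Their summed normalized level was 48211 to 53381 in TDAG51-/-, against 131095 in TDAG51+/+ and 125026 in TDAG51-/-Tg2. A sum, here and below, is weighted toward the brightest probes and is not a level of the region. On the first array Adora2a alone held 10594 of this sum in TDAG51-/- and 52527 in TDAG51+/+. A dimmer probe of Adora2a had log2 ratios of -0.30 and -0.37. The dopamine receptor Drd1 was 5.44-fold and 5.34-fold lower, whereas Drd2 was 1.07-fold and 1.15-fold higher. Of the other lists, 5 genes whose spots were saturated in a channel are left out of the values (Nrgn, Cbln1, Pcp2, Zic1 and Tcf7l2, named for this after their values were seen). Of the other 10 cortex and hippocampus markers, 3 and 5 were at least 2-fold lower and 1 and 0 higher, with medians of -0.78 and -0.95, and their summed level was 32705 to 34301 in TDAG51-/- against 51362 and 63289. Of the receptors placed above in these regions, Htr6 was at least 2-fold lower in both comparisons and Htr5a against TDAG51+/+ alone. Htr1a, Htr2a and Htr3a were within 2-fold wherever a ratio was measured, Htr7 was higher, and Htr4 was close to background.

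Of the 8 cerebellum markers not saturated, 8 were at least 2-fold higher in TDAG51-/- in each comparison, with medians of 2.34 and 2.16, and their summed level was 123445 to 129296 in TDAG51-/- against 15060 in TDAG51+/+ and 17469 in TDAG51-/-Tg2. On the first array Gabra6 alone held 71939 of this sum in TDAG51-/- and 4906 in TDAG51+/+. Of the 10 hindbrain and brainstem markers above background (Tlx3 was not), 5 and 6 were at least 2-fold higher, with medians of 1.66 and 1.73, and the summed level was 8149 to 8642 against 2326 and 2351. Of the 7 thalamus markers not saturated, a region where Htr7 is known, 0 were 2-fold apart in either comparison, with medians of -0.26 and -0.30 and a summed level of 64607 to 76122 against 64201 and 86659. Of 10 choroid plexus markers, the tissue richest in Htr2c, 2 and 1 were at least 2-fold higher and 1 and 0 lower, with medians of 0.64 and 0.39 and a summed level of 22040 to 24586 against 14880 and 16074. The part of these regions in the ratios of Htr6, Htr7, Htr1b or any other receptor was not tested.

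**Figure D4:**
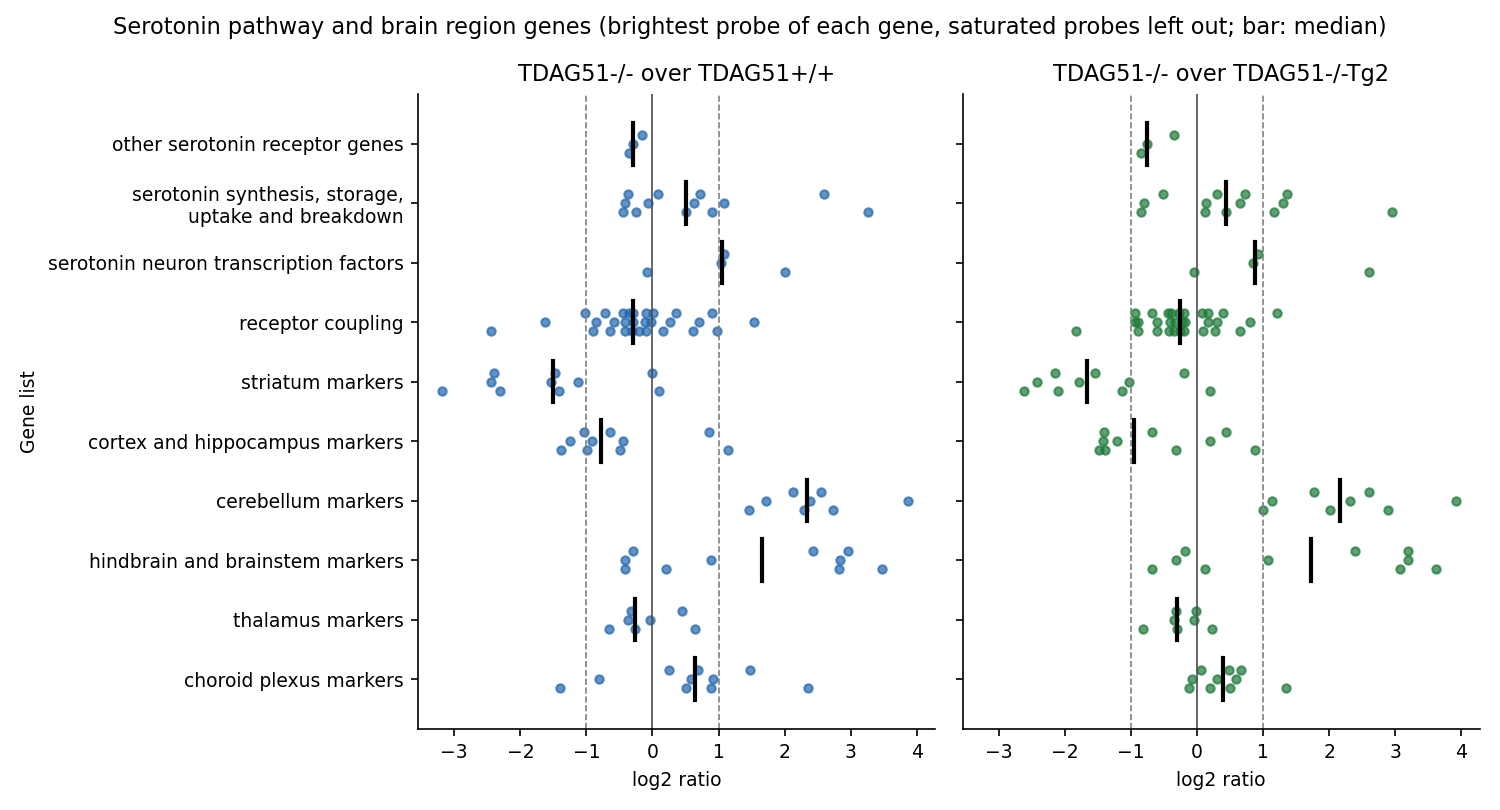
log2 ratio of TDAG51-/- over TDAG51+/+ (left) and over TDAG51-/-Tg2 (right) for each gene above background in the serotonin pathway and brain region lists, 1 point for the brightest probe of each gene, saturated probes left out, with a black bar at the list median and dashed lines at 2-fold. Cerebellum markers lie furthest right (medians 2.34 and 2.16) and striatum markers furthest left (-1.51 and -1.66).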

How the data were processed

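Whole brain RNA of TDAG51-/-, TDAG51+/+ and TDAG51-/-Tg2 dams was put on 2 Agilent arrays of the whole mouse genome in a pair of dyes. The authors deposited scanner output from Agilent Feature Extraction 9.5.3.1, which lists for each spot its mean intensity and local background. The log10 ratio that the authors deposited with it is Cy5 divided by Cy3, which the software had corrected for background and for dye. The authors also deposited a log2 ratio, in which 5373 (first array) and 5457 (second array) of the 41174 probes have no value. It differed from the scanner's ratio, turned to Cy3 over Cy5, by a median of 0.0059 and 0.0058, and its column medians were -0.011 and -0.0097, so that its direction was taken as Cy3 over Cy5. How it was made is not given in the sources used here.

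Control spots and those marked as outliers by the scanner (375 and 300 spots) were removed. Background was corrected by normexp (offset 50) and each array was normalized by loess in limma 3.58.1 with R 4.3.3 (jsonlite 2.0.0 and, at version 1.17.8, data.table), and spots of a probe were averaged. Channels were compared between arrays after Aquantile scaling. Further steps used biopython 1.88, pandas 2.3.3, numpy 2.4.6 and matplotlib 3.10.9 in Python 3.11.15. A probe was counted where the scanner marked at least 1 of its channels as well above background, at 2-fold as in the study's methods, and a channel near background gave a bound. With 1 array a comparison no test was made, and precision is limited by the number of arrays.

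The genes, the lists and the rule for naming genes were chosen with earlier results of these data known. The rule names every receptor gene and probe, TDAG51, the other receptor genes, up to 6 genes of a pathway list that differed 2-fold by their brightest probe, and up to 2 markers of a region list. Adora2a and Gabra6 were named in addition, for their weight in a summed level. Receptor probes were named by the gene name in the scanner output, whereas genes of the lists were also taken by synonym or RefSeq accession. The choroid plexus marker Slc4a5, at least 2-fold higher in both comparisons, was read under another name. Alternatives were offset 0, median centring, no normalization, the scanner's and the deposited ratios, other filters on dim probes, outlier spots kept and, between arrays, scaling of each channel to its median.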

Additional observations from a re-analysis of the deposited data

How the results depend on the processing

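The count of receptor probes at least 2-fold higher than in TDAG51+/+ rose from 1 to 2 with offset 0, with median centring, with the scanner's log ratio and with the deposited log2 ratio, the added probe being Htr1b in each, while the share of all probes tested went from 4.9% to 9.08%, 4.78%, 11.6% and 11.3%. The count at least 2-fold lower than in TDAG51-/-Tg2 rose from 1 to 2 with the deposited log2 ratio, by Htr1d, and the share of all probes from 3.86% to 8.58%. Between arrays, the count at least 2-fold higher in TDAG51-/-Tg2 than in TDAG51+/+ fell from 1 to 0 when each channel was scaled to its median (all probes 3.78% and 2.63%), so that Htr2c probe A_51_P370810 no longer passed. Under the other alternatives run, these counts and the counts lower than in TDAG51+/+, higher than in TDAG51-/-Tg2 and lower between the controls did not change, and the count between both TDAG51-/- readings was 0 throughout. Over the alternatives, the log2 ratio of Htr6 ran from -2.54 to -1.49 against TDAG51+/+ and from -3.14 to -2.24 against TDAG51-/-Tg2, that of Htr7 from 1.06 to 1.40 and from 1.82 to 2.68, and that of Htr5a from -3.66 to -3.39 against TDAG51+/+. Of the values of single probes under an alternative, 73 moved by more than the SD between spots and 53 did not. That SD comes from probes with repeated spots, whereas each receptor probe had 1 spot, with a larger error by the scanner's model. Without normalization the median log2 ratio of all probes was -0.19 and -0.25, so that a ratio in that setting is read against this shift. Dim spots limit the size given for Htr6, Htr7, Htr1b, Htr1d and Htr4, since an offset draws their ratios toward 0. The list medians of the pathway and region genes kept their sign in each scaling run. Their 2-fold counts moved most for the signalling genes, where the lower count ran from 3 to 6 against TDAG51+/+ and from 1 to 8 against TDAG51-/-Tg2, both highest without normalization. Against TDAG51+/+, the higher count of the transcription factors fell from 3 to 1 without normalization, and the lower count of cortex and hippocampus markers rose from 3 to as many as 5. Against TDAG51-/-Tg2, up to 2 of the 3 other receptor genes and up to 2 thalamus markers were 2-fold lower in some setting, where 0 were with loess and offset 50. No paired analysis was possible because each comparison has 1 array.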
